A study of Mus musculus with 18 samples.

Results

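The IGF binding proteins Igfbp2, Igfbp3, Igfbp4, Igfbp5, Igfbp6 and Igfbp7 were followed in C3H10T1/2 cells, a mouse embryo fibroblast line that can be turned into adipocytes. Probe sets were taken by gene symbol, which gave 8 of the 12488 probe sets on the array, for 5 of the 6 genes. The only probe set for Igfbp5 is annotated to both Tmem119 and Igfbp5, so it is given by its identifier (100566_at) and counted for neither gene. The 18 arrays, each carrying mRNA pooled from 6 cultures, formed 8 groups that combined an adipogenic mix, EGF and TCDD in every way.

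The mix, named IDMB in the labels, held 1 µM BRL49653 (rosiglitazone, an agonist of the adipocyte receptor PPARG), 1 µM dexamethasone (a glucocorticoid), 0.5 µM IBMX (a phosphodiesterase inhibitor that raises cAMP) and 10 µg/mL insulin, and was given for 24 h. EGF, a growth factor, was used for 24 h at 10 nM. TCDD, a dioxin, was used for 72 h at 10 nM and acts on cells by way of AhR, the aryl hydrocarbon receptor. The groups were IDMB+EGF+TCDD, IDMB+EGF, IDMB+TCDD, IDMB, EGF+TCDD, EGF, TCDD and UT, the last being read as cells given none of these. There were 3 arrays for IDMB, 3 for UT and 2 for each of the remaining 6 groups. All cultures were harvested 72 h after their last serum and 24 h after they became confluent, so every group was serum-deprived and confluent. The cells are 1 line, each pool hides differences between its cultures, and a p value covers only the spread between these pools.

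IGF binding proteins are secreted carriers that hold IGF1 and IGF2 outside the cell. By doing so they can keep the growth factors from the type 1 IGF receptor, or hold them in reserve until a protease cuts the carrier. Fibroblasts and adipocyte precursors make several of them, and IGF and insulin signals are among those that drive fat cell formation.

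Promoter sequence is shown for Igfbp3 and Igfbp4, the genes with called changes under both IDMB and EGF. Each run holds the 250 bases before the RefSeq start on GRCm38.p6, written 5′ to 3′ on the gene's strand, at chr11:7213924-7214173 (minus strand) for Igfbp3 and chr11:99040994-99041243 (plus strand) for Igfbp4. Capitals mark GCGTG, the core letters that AhR binds, and TATAAA, the letters of the TATA box, each searched on both strands.
Igfbp3: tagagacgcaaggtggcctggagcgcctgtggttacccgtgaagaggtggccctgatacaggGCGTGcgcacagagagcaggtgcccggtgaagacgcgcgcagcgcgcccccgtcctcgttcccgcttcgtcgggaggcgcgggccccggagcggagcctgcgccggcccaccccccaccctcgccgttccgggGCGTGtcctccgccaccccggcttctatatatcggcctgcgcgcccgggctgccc
Igfbp4: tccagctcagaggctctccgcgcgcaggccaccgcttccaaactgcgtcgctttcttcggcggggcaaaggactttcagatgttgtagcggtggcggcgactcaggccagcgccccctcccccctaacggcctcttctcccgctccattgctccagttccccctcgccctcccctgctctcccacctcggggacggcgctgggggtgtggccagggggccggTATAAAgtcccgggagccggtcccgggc
Igfbp3 held GCGTG at 2 places, 188 and 55 bases before its start, and Igfbp4 held TATAAA 28 bases before its start but no GCGTG. The AhR core was present in 28.2% and the TATA box in 12.4% of the 32841 RefSeq promoter windows of this length. All 6 members had a promoter entry, and Igfbp2 had 2 starts. Of the others, Igfbp2 held GCGTG at 1 of its starts and Igfbp7 held it once, and Igfbp6 held TATAAA on the opposite strand, 148 bases before its start. AGAACA (letters of the glucocorticoid receptor element, in 16.1% of promoters) and TGANTCA (the AP-1 site, in 6.75%) were each found for Igfbp2 only. AGGTCA, letters of the element of PPARG and its partner RXR present in 14% of promoters, was in none of the members' windows. These matches describe letters and do not show binding. In RefSeq gene order Igfbp2 lies next to Igfbp5, and Igfbp3 next to Igfbp1.

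The arrays had medians of 793.4 to 935.7, and a floor of 143.5 was applied, below which 20 percent of all intensities lay. As a check of the treatments, all 4 AhR targets were higher with TCDD on average, all 3 EGF-responsive genes with EGF and all 5 genes of the glucocorticoid, PPARG and fat storage responses with IDMB. Single arrays went against this for EGF. Egr1, an immediate target of growth factor signals, read 9416 on TCDD replicate 1 and 10709.5 on IDMB+TCDD replicate 1, within the 7245 to 18126 of the arrays with EGF, against 1162 to 2499 on the other 8 arrays without EGF. Dusp6, another EGF-responsive gene, read 2790 on TCDD replicate 1, against 618.7 on replicate 2. Fosl1, the third, read 3068 on TCDD replicate 1, against 1297 on replicate 2, and was also 1121 to 3111 on IDMB arrays without EGF. Member results are therefore also given without TCDD replicate 1 and IDMB+TCDD replicate 1, a choice made after seeing these values. Of 12 fibroblast and mesenchymal markers 10 were bright enough to test, with Col1a1 at 68469 to 152911, and their summed intensity, over all 12, was 260501 to 436966 on IDMB arrays and 277864 to 511791 without IDMB. Of the 10, 5 were lower with IDMB, 3 higher with EGF and 1 lower with TCDD. Of 8 adipocyte markers 6 were tested, and Adipoq, Fabp4 and Pparg were higher with IDMB, Adipoq, Lpl and Pparg lower with TCDD, and Pparg lower with EGF. The 8 adipocyte markers summed to 9260 to 24616 on IDMB arrays and 6676 to 17736 without IDMB. Most macrophage (6 of 8), endothelial (5 of 8), epithelial (7 of 8) and skeletal muscle (5 of 8) markers, and all 4 bone and cartilage markers present, were below the filter. The ratio of 3′ to 5′ beta-actin signal, a sign of RNA integrity, was 1.80 to 3.80 on IDMB arrays and 1.23 to 1.93 without IDMB. Among IDMB arrays it was 2.24 to 3.80 with EGF, against 1.80 to 2.25 without, and among the others 1.52 to 1.93 with EGF, against 1.23 to 1.43 without. The same ratio for Gapdh was 1.75 to 2.86 on IDMB arrays with EGF, against 1.05 to 1.73 on IDMB arrays without EGF. On arrays without IDMB the Gapdh ratio was 1.43 to 2.71 with EGF, against 0.854 to 1.52 without.

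Of the 8 probe sets 5, for Igfbp2, Igfbp3, Igfbp4 (by a pair of probe sets) and Igfbp7, passed the filter, which asked that the highest group mean reach the median of all values (849.9). With IDMB, averaged over its 4 backgrounds, 3 of the 5 were higher and 0 lower, for Igfbp3 and Igfbp4. Over all 7134 tested probe sets 34.1% were called in that comparison, 15.5% higher and 18.6% lower. With EGF 0 of 5 were higher and 3 lower, for Igfbp3 and Igfbp4 again, where 13.1% of all were called (7.06% higher, 6.04% lower). Igfbp3 passed the filter (9.73 in log2) only through IDMB, with a group mean of 11.3. Of the Igfbp4 pair, 101571_g_at passed only through IDMB and IDMB+TCDD, at 9.88 and 10.9. Those groups have IDMB and no EGF, so neither the IDMB nor the EGF count can be read against its share of all probe sets. With TCDD 0 of 5 were called by limma, 2 having an unadjusted p under 0.05, where 5.54% of all were called (2.71% higher, 2.83% lower). Igfbp2 passed the filter only through IDMB and UT, at 10.4 and 9.98. Like the IDMB group of Igfbp3 these have no TCDD, so the TCDD count cannot be read against its share either. A call means a Benjamini-Hochberg adjusted p under 0.05 over all tested probe sets in limma.

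**Figure D1:**
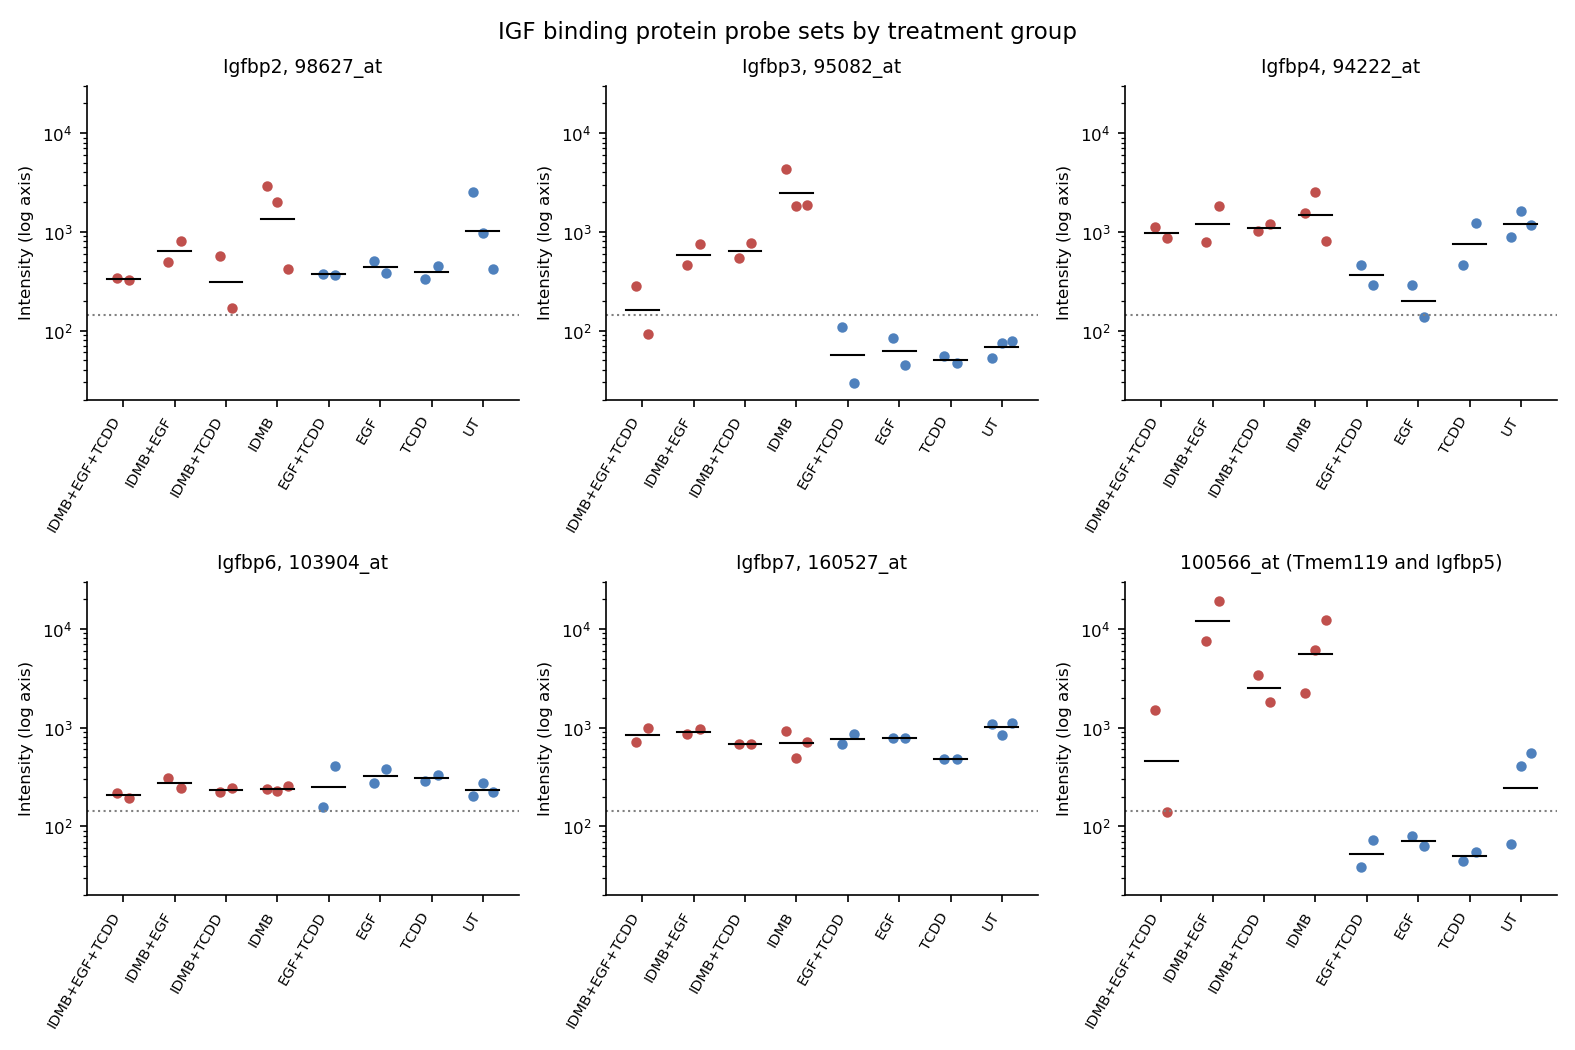
Intensity (log axis) of each IGF binding protein's brightest probe set and of the probe set annotated to Tmem119 and Igfbp5, by group. Points are arrays, bars are geometric means, red marks groups with IDMB, blue those without, and the dotted line is the floor of 143.5. For Igfbp3 all 9 arrays without IDMB lie under the floor, and Igfbp6 and Igfbp7 stay within a narrow band.

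Igfbp3 encodes the main carrier of IGF1 in blood. Its brightest probe set (95082_at) was under the floor on all 9 arrays without IDMB, between 29.5 and 108.9, and over it on 8 of the 9 arrays with IDMB. IDMB alone gave the highest readings, and EGF or TCDD added to IDMB each lowered them. The IDMB+EGF+TCDD arrays read 284.1 and 91.3, the IDMB+EGF arrays 458.4 and 751.3, the IDMB+TCDD arrays 539.4 and 767.4 and the IDMB arrays 4284, 1847 and 1871. Every array with EGF, TCDD or both on top of IDMB thus read below every array with IDMB alone. The adipocyte markers Adipoq and Pparg moved with these readings, and their part in them was not tested. Of the 6 adipocyte markers tested, 1 was lower with EGF on average and 5 were not called. With TCDD 3 were lower and 3 were not called. Adipoq, the adipocyte hormone adiponectin, read 184.9 and 476.4 with IDMB+EGF+TCDD, 542 and 623.7 with IDMB+EGF, 361 and 306.7 with IDMB+TCDD, and 1590, 1593 and 1378 with IDMB. Pparg read 931.2 and 454.7 with IDMB+EGF+TCDD, 1232 and 1702 with IDMB+EGF, 1237 and 1168 with IDMB+TCDD, and 4100, 2624 and 2273 with IDMB. For both genes the IDMB arrays lay above those of the other 3 groups. In cultures, less mRNA per cell and fewer cells making it cannot be told apart.

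On the log2 scale with the floor applied, Igfbp3 was 2.20 ± 0.28 higher with IDMB on average (SE, limma adjusted p = 1.52e-05). Leaving out any 1 array gave 2.07 to 2.32, called each time. Added to TCDD, IDMB raised Igfbp3 at least 4.48-fold (log2 2.16 ± 0.58, limma adjusted p = 0.0226), where 12.8% of all probe sets were called. Added to EGF it raised Igfbp3 at least 4.09-fold (log2 2.03 ± 0.58, limma adjusted p = 0.0346), where 10.8% were called. Both are lower bounds because the TCDD and EGF arrays were all at the floor, as were the UT arrays, against which the bound was 17.1-fold for IDMB (limma adjusted p = 2.07e-05, 14.1% called). The calls on TCDD and on EGF were each lost without any 1 of the 4 arrays they compare, with adjusted p up to 0.168 and 0.176. Added to EGF+TCDD, where 6.5% of all probe sets were called, IDMB gave 284.1 and 91.3 for Igfbp3, against 108.9 and 29.5 with EGF+TCDD, and the arrays overlapped. That difference was not called (limma adjusted p = 0.715).

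EGF on top of IDMB lowered Igfbp3 4.18-fold (log2 -2.06 ± 0.53, limma adjusted p = 0.0400), where 3.8% of all probe sets were called. TCDD on top of IDMB lowered it 3.82-fold (log2 -1.93 ± 0.53, limma adjusted p = 0.0395), where 6.59% were called. These comparisons share the 3 IDMB arrays, the only group through which this probe set passed the filter. Neither they nor IDMB against UT can thus be read against the share of all probe sets called. The groups without IDMB, all set to the floor, had a log2 standard deviation of 0, against 0.36 to 0.70 in the IDMB groups. They lower the SE that all groups share, so the SE and p values given for Igfbp3 may be too small. The EGF call was lost without any 1 of the IDMB or IDMB+EGF arrays or IDMB+TCDD replicate 2 (log2 -2.42 to -1.66, adjusted p up to 0.293). The TCDD call was lost without any 1 of the IDMB or IDMB+TCDD arrays (log2 -2.19 to -1.53, adjusted p up to 0.237), and under median scaling and quantile normalization. Among the 3 groups under IDMB alone, IDMB+TCDD and IDMB+EGF overlapped. IDMB+EGF+TCDD read below both on every array, but neither step was called, with a limma adjusted p of 0.263 against IDMB+TCDD and 0.535 against IDMB+EGF.

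Averaged over backgrounds, Igfbp3 was 0.93 ± 0.28 lower with EGF on the log2 scale (limma adjusted p = 0.0363) and differed by -0.87 ± 0.28 with TCDD (limma adjusted p = 0.0862, or 0.0496 and so called with no filter). The EGF average was called without 7 of the 18 arrays and lost without any of the other 11, with an adjusted p up to 0.0931. Those 11 were replicate 2 of IDMB+EGF+TCDD, IDMB+TCDD and UT, replicate 1 of IDMB+EGF and IDMB, and all EGF+TCDD, EGF and TCDD arrays. Both averages rest on the 4 groups with IDMB, since the 4 others were at the floor. With the actin ratio as a covariate the IDMB average was 2.31 (limma adjusted p = 0.0460) and the EGF average -0.86 (limma adjusted p = 0.502). No fold is given for EGF or TCDD without IDMB, where both sides were at the floor.

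The second Igfbp3 probe set (95083_at) was dim, between 92.5 and 788.8, under the floor on 7 of 18 arrays and below the filter. It read 137.6 to 788.8 on IDMB arrays and 92.5 to 217.2 without IDMB, and 6 of the 9 IDMB arrays exceeded every array without it. The order within the IDMB groups differed from that of the brighter probe set, since 95083_at was highest with IDMB+TCDD, at 545.6 and 788.8, against 253.9 to 406.6 with IDMB alone. When all 12422 probe sets were tested without a filter, 95083_at was higher with IDMB on average (log2 0.97 ± 0.25, limma adjusted p = 0.0175) and with IDMB+TCDD against TCDD (log2 2.06 ± 0.52, limma adjusted p = 0.0438). IDMB+TCDD against IDMB differed by 1.11 ± 0.47 and was not called (limma adjusted p = 0.273). EGF on top of IDMB gave -0.05 ± 0.47 for 95083_at, against -2.06 for 95082_at, and was not called. IDMB against UT gave 0.88 ± 0.42, against 4.10 for 95082_at, and was not called either (limma adjusted p = 0.313). The pair of probe sets correlated at r = 0.66 over the 18 arrays, which share the 8 groups, and both were called higher with IDMB on average. Their signs were opposite for TCDD on top of IDMB, and the fall with EGF on top of IDMB was called only for 95082_at.

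**Figure D2:**
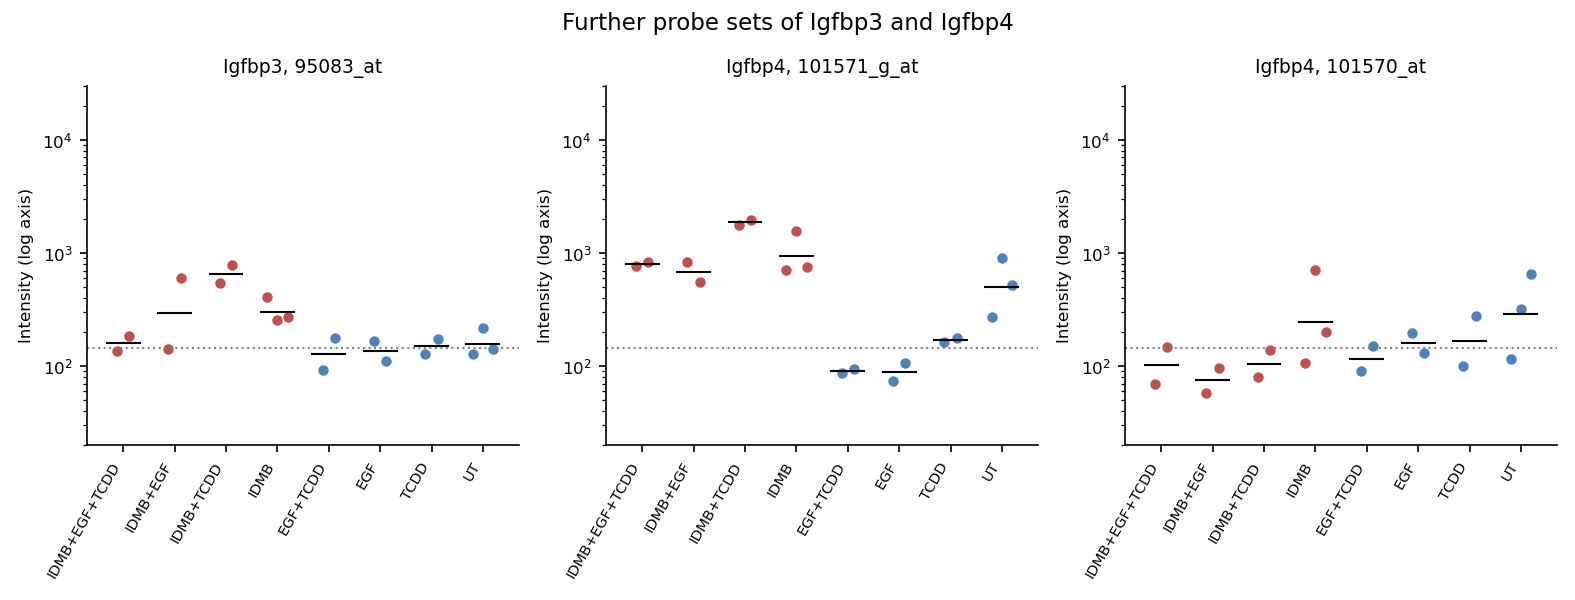
Intensity (log axis) by group of the further Igfbp3 and Igfbp4 probe sets. Points are arrays, bars are geometric means, red marks groups with IDMB, blue those without, and the dotted line is the floor of 143.5. The Igfbp4 probe set 101571_g_at is under the floor on all 4 arrays with EGF and no IDMB, and 95083_at and 101570_at stay under 789 throughout.

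Igfbp4 encodes a carrier known mainly for restraining IGF action, which the protease pregnancy-associated plasma protein A removes by cutting it. It was lowest in cells given EGF without IDMB and higher where IDMB was added to EGF. Its brightest probe set (94222_at) read 1109 and 869.8 with IDMB+EGF+TCDD, 780.1 and 1833 with IDMB+EGF, 1031 and 1186 with IDMB+TCDD, and 1540, 2548 and 798.4 with IDMB. Without IDMB it read 457.2 and 291.0 with EGF+TCDD, 291.0 and 137.2 with EGF, 464.8 and 1223 with TCDD, and 885.7, 1636 and 1171 in UT. All 4 arrays with EGF and no IDMB lay below all 5 arrays with neither EGF nor IDMB, while the IDMB arrays with and without EGF overlapped. TCDD replicate 1, the array with high Egr1, was the lowest of those 5, at 464.8.

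The probe set 101571_g_at was likewise lowest with EGF and no IDMB. It read 767.2 and 830.6 with IDMB+EGF+TCDD, 840.8 and 555.3 with IDMB+EGF, 1787 and 1971 with IDMB+TCDD, and 702.6, 1571 and 756.4 with IDMB. It was under the floor with EGF+TCDD (86.8 and 94.5) and with EGF (74.1 and 106), just over it with TCDD (162.3 and 176), and at 270.2, 896.5 and 527.2 in UT. The highest readings were thus with IDMB+TCDD and the lowest with EGF and no IDMB. The pair correlated at r = 0.73 over the 18 arrays, which share the 8 groups.

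With IDMB on average, Igfbp4 was 1.21 ± 0.28 higher on the log2 scale by 94222_at (limma adjusted p = 0.00329) and 2.28 ± 0.26 higher by 101571_g_at (limma adjusted p = 4.99e-06). Both calls were kept without any 1 array, at 1.03 to 1.38 and 2.16 to 2.38. With the actin ratio as a covariate 101571_g_at kept its call (2.31, limma adjusted p = 0.0326) and 94222_at lost it (1.73, limma adjusted p = 0.128). Added to EGF, IDMB raised 94222_at 5.85-fold (log2 2.55 ± 0.58, limma adjusted p = 0.00997), with a range of 3.82-fold without IDMB+EGF replicate 2 to 8.97-fold without replicate 1. That call was lost without IDMB+EGF replicate 2 or EGF replicate 2 (adjusted p up to 0.134). For 101571_g_at IDMB gave an increase of at least 4.76-fold on EGF (log2 2.25 ± 0.54, limma adjusted p = 0.0136) and at least 5.56-fold on EGF+TCDD (log2 2.48 ± 0.54, limma adjusted p = 0.0116). The first was lost without IDMB+EGF replicate 1 or either EGF array (adjusted p up to 0.113), and the second without any of the 4 arrays it compares (adjusted p up to 0.0828).

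Added to TCDD, IDMB raised 101571_g_at 11.1-fold (log2 3.47 ± 0.54, limma adjusted p = 0.000630), and this call was kept without any 1 array. That probe set had passed the filter only through IDMB and IDMB+TCDD, the latter being the high side here. In the same comparison 94222_at differed by 0.55 ± 0.58 and was not called (limma adjusted p = 0.590), so the probe sets disagreed on its size. Against UT, IDMB changed neither probe set by call, at 0.30 ± 0.48 for 94222_at (limma adjusted p = 0.776) and 0.90 ± 0.44 for 101571_g_at (limma adjusted p = 0.220). The IDMB and UT arrays overlapped for both.

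EGF alone lowered Igfbp4 relative to UT, 5.84-fold by 94222_at (log2 -2.54 ± 0.53, limma adjusted p = 0.0130) and at least 3.51-fold by 101571_g_at (log2 -1.81 ± 0.50, limma adjusted p = 0.0413), where 6.17% of all probe sets were called. The first call was lost without EGF replicate 2 or UT replicate 2 (log2 -3.05 to -2.03, adjusted p up to 0.180). The second was lost without any 1 of 10 arrays, the IDMB+EGF+TCDD, IDMB+TCDD, EGF+TCDD and EGF arrays and UT replicates 2 and 3 (log2 -2.26 to -1.40, adjusted p up to 0.219). Averaged over backgrounds Igfbp4 was lower with EGF by 1.01 ± 0.28 for 94222_at (log2, limma adjusted p = 0.0262) and by 0.94 ± 0.26 for 101571_g_at (log2, limma adjusted p = 0.0272). The 94222_at average was lost without any 1 of 6 arrays, replicate 2 of IDMB+EGF+TCDD, IDMB+TCDD, EGF+TCDD, EGF and TCDD and replicate 1 of IDMB+EGF (adjusted p up to 0.0828). The 101571_g_at average was lost without any 1 of 7, both IDMB+EGF+TCDD arrays, replicate 2 of IDMB+EGF, IDMB+TCDD, EGF and TCDD and replicate 1 of EGF+TCDD (adjusted p up to 0.0681). Both were also lost with the actin ratio as a covariate (limma adjusted p = 0.617 and 0.433). TCDD on average gave -0.13 ± 0.28 and -0.09 ± 0.26 (limma adjusted p = 0.855 and 0.898). For 101571_g_at that average joins opposite signs, neither called. They were -1.58 ± 0.50 for TCDD against UT (limma adjusted p = 0.0628) and 1.00 ± 0.50 for IDMB+TCDD against IDMB (limma adjusted p = 0.252). In these comparisons 94222_at gave -0.66 and -0.40, also not called. The third Igfbp4 probe set (101570_at) was at or under the floor on 10 of 18 arrays, between 58.3 and 715.1, and with no filter 0 of 18 comparisons were called (lowest limma adjusted p = 0.456). Its average log2 difference with IDMB was -0.22 ± 0.35, opposite in sign to the brighter pair.

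Igfbp2 encodes a carrier of both IGFs and varied widely between arrays of the same group. It read 337.3 and 326.8 with IDMB+EGF+TCDD, 497 and 813.8 with IDMB+EGF, 572.1 and 170 with IDMB+TCDD, and 2902, 1986 and 418.1 with IDMB. Without IDMB it read 371.6 and 367.6 with EGF+TCDD, 501.8 and 383 with EGF, 335.4 and 449.8 with TCDD, and 2541, 967.2 and 422.5 in UT. Only IDMB and UT, the groups without EGF or TCDD, held arrays above 813.8, and in both the third replicate was the lowest.

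All 8 TCDD arrays lay between 170 and 572.1, against 383 to 2902 on the 10 arrays without TCDD, and 6 of the 8 were below the lowest array without it. The average log2 difference of Igfbp2 with TCDD was -1.17 ± 0.40 and was not called (limma adjusted p = 0.115). It was called without IDMB replicate 3 (-1.38, limma adjusted p = 0.0250) or without UT replicate 3 (-1.33, limma adjusted p = 0.0486). The averages for IDMB (0.12 ± 0.40, limma adjusted p = 0.854) and EGF (-0.57 ± 0.40, limma adjusted p = 0.390) were not called either. With the replicate number as a block, the averages for TCDD (-1.54, limma adjusted p = 0.00360) and EGF (-0.93, limma adjusted p = 0.0354) were called. Replicate 3 exists only in IDMB and UT, so its block term rests on the low arrays at 418.1 and 422.5 alone. Without the block limma called 0 of 18 comparisons for Igfbp2, with 2 at an unadjusted p under 0.05.

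Igfbp7 encodes a secreted protein of the family that binds IGFs only weakly. It read 475.8 to 1119 over the 18 arrays, and its groups differed by less than those of the members above. The TCDD arrays, at 475.8 and 484.7, were the lowest pair and lay below the UT arrays at 1082, 845.2 and 1119. The difference was 2.10-fold (log2 -1.07 ± 0.32, limma adjusted p = 0.0492), where 7.68% of all probe sets were called. The call was lost without any 1 of 16 of the 18 arrays, all but IDMB replicates 1 and 2 (log2 -1.20 to -0.99, adjusted p up to 0.201). The ratio of 3′ to 5′ Gapdh signal was also lowest on the TCDD arrays, at 0.854 and 0.919, and with it as a covariate the Igfbp7 call was lost. On top of IDMB, TCDD gave 680.2 and 683.1 for Igfbp7, against 930.8, 491 and 720.5 with IDMB alone. With EGF, the readings were 682.2 and 852.7 with EGF+TCDD, against 790.9 and 791.5 with EGF. These pairs of groups overlapped. The averages were 0.08 ± 0.17 for IDMB, 0.25 ± 0.17 for EGF and -0.31 ± 0.17 for TCDD (limma adjusted p = 0.766, 0.341 and 0.317).

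Igfbp6 encodes the carrier that prefers IGF2. Its probe set (103904_at) read 155.3 to 410.7 with a median of 244.7, over the floor on every array but below the filter. IDMB arrays read 195.5 to 305.3, against 155.3 to 410.7 without IDMB, and the ranges overlapped. With no filter limma called 0 of 18 comparisons (lowest adjusted p = 0.473), and the averages were -0.22 ± 0.17 for IDMB, 0.05 ± 0.17 for EGF and -0.09 ± 0.17 for TCDD on the log2 scale.

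The probe set 100566_at cannot be assigned between Tmem119, a membrane protein, and Igfbp5, a carrier known to bind bone and extracellular matrix. It was highest in the IDMB groups, with the IDMB+EGF+TCDD arrays the lowest of these. It read 1508 and 140.3 with IDMB+EGF+TCDD, 7519 and 19271 with IDMB+EGF, 3435 and 1832 with IDMB+TCDD, and 2230, 6093 and 12388 with IDMB. Without IDMB it was under the floor in EGF+TCDD, EGF and TCDD (38.3 to 80.0 over the 6 arrays) and read 66.6, 403.8 and 554.7 in UT. Of the 9 IDMB arrays 8 were above every array without IDMB. The probe set passed the filter only through IDMB+EGF, IDMB+TCDD and IDMB. Its calls for IDMB, and for TCDD on top of IDMB+EGF, thus cannot be read against the share of all probe sets called.

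On average 100566_at was 4.08 ± 0.44 higher with IDMB on the log2 scale (limma adjusted p = 2.51e-06), at 3.66 to 4.51 without any 1 array and 6.52 with the actin ratio as a covariate. That covariate also gave log2 values of 6.16 against UT, 6.68 on TCDD and 8.24 on EGF for 100566_at, and the Gapdh ratio gave 4.86 on TCDD, all called. The increase was 17.4-fold against UT (limma adjusted p = 0.00116, 27.3-fold without IDMB replicate 1), at least 17.5-fold on TCDD (limma adjusted p = 0.00804) and at least 83.9-fold on EGF (limma adjusted p = 0.000263). On EGF the bound was 52.4-fold without IDMB+EGF replicate 2 and 134.3-fold without replicate 1, and on TCDD the call was lost without IDMB+TCDD replicate 1 (adjusted p = 0.0624). With TCDD on average 100566_at was lower by 1.74 ± 0.44 (log2, limma adjusted p = 0.0272). That call was lost without any 1 of 9 arrays, replicate 2 of IDMB+EGF+TCDD, IDMB+EGF and IDMB+TCDD and the EGF+TCDD, EGF and TCDD arrays (adjusted p up to 0.0717). TCDD on top of IDMB+EGF gave a log2 difference of -4.69 ± 0.92 (limma adjusted p = 0.0335), where 0.364% of all probe sets were called. That call was lost without IDMB+EGF+TCDD replicate 2, either IDMB+EGF array or any EGF+TCDD or EGF array, and ran from -6.39 without replicate 1 to -3.00 without replicate 2 of IDMB+EGF+TCDD. EGF on average gave -0.61 ± 0.44 (limma adjusted p = 0.390), and this turned to 1.01 with the actin ratio and to 1.71 with the Gapdh ratio as a covariate.

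**Figure D3:**
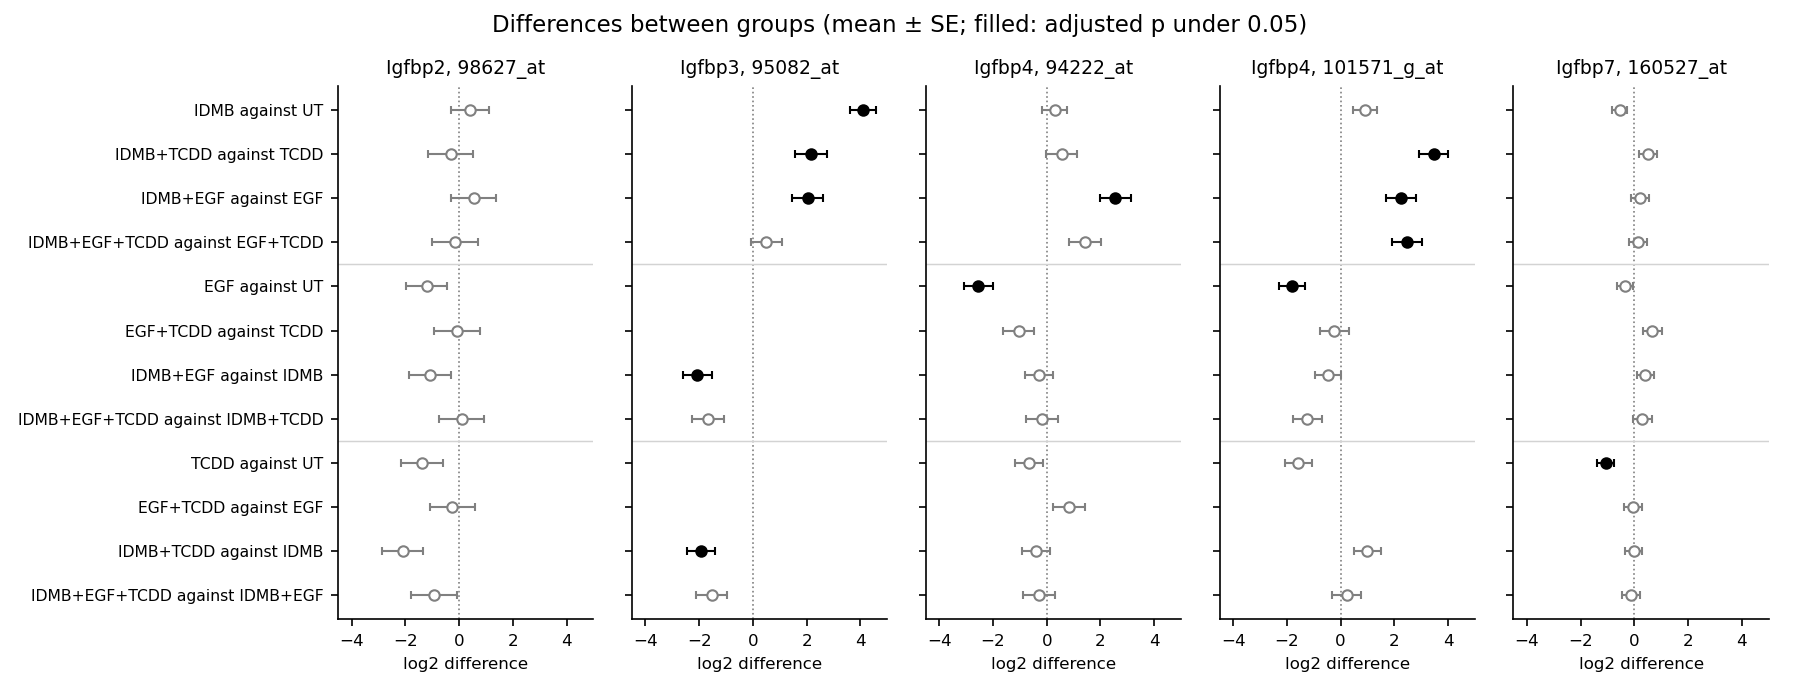
Log2 differences between groups for the 5 tested member probe sets, first-named group minus the second. Points are limma estimates, bars are SE, filled points have an adjusted p under 0.05, and a gap means that both groups were wholly at the floor. Filled points lie right of 0 for IDMB in the top block and left of 0 for EGF and TCDD in the lower blocks.

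Several comparisons had 0 called members among the 5 probe sets. They were EGF+TCDD against TCDD (3.5% of all probe sets called, 0 members at an unadjusted p under 0.05), EGF+TCDD against EGF (0.28%, 0 members), IDMB+EGF+TCDD against IDMB+TCDD (0.28%, 2 members) and IDMB+EGF+TCDD against IDMB+EGF (1 member). Whether a treatment changed another's effect was tested by the interactions, each averaged over the third treatment. They called 0.126% of all probe sets for IDMB by EGF, 0.112% for IDMB by TCDD and 4.47% for EGF by TCDD. Limma called 0 of the 15 member tests, 4 of which had an unadjusted p under 0.05 (lowest adjusted p = 0.193, for Igfbp3 in IDMB by EGF). For Igfbp3 the groups without IDMB were all at the floor. IDMB by EGF and IDMB by TCDD therefore repeat its EGF and TCDD averages, with the same unadjusted limma p (0.00405 and 0.00668). Only the adjustment differs, and the floor hides any effect without IDMB. These tests thus cannot tell whether the IDMB effect on Igfbp3 differed between backgrounds. For Igfbp4 the effects of IDMB were not shown to differ between backgrounds.

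Because the actin ratio moved with IDMB and with EGF, the calls were read again with it as a covariate, and its part in the results was not tested further. The calls kept were Igfbp3 with IDMB on average and against UT, 94222_at with IDMB on EGF, 101571_g_at with IDMB on average and on TCDD, and the IDMB calls of 100566_at. The remaining 15 of the 24 calls were lost with the sign unchanged. Of those 15, 14 stayed within 1.5-fold of the value without the covariate, and 5 were as large or larger with it. The Gapdh ratio also moved with EGF, and its part in the results was not tested further. With the Gapdh ratio, 9 of the 24 were lost, among them all 3 EGF averages and both EGF calls for Igfbp4 against UT. Both calls for EGF or TCDD added to IDMB for Igfbp3 were lost as well. The EGF averages of the 3 EGF-responsive check genes, Fosl1, Dusp6 and Egr1, also lost their calls with either ratio, with the signs unchanged. Without the filter the EGF calls for Igfbp4 against UT, the EGF average of 94222_at, the Igfbp7 call and both TCDD calls of 100566_at were lost, and median scaling also lost the call for EGF added to IDMB for Igfbp3.

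Without TCDD replicate 1 and IDMB+TCDD replicate 1 together, 14 of the 24 calls were kept and 10 lost, and no called value moved by more than 1.5-fold. The fit then takes the spread of the TCDD and IDMB+TCDD groups, with 1 array each, from the remaining groups. The IDMB averages of Igfbp3 (2.26, limma adjusted p = 0.000132) and Igfbp4 (1.06 for 94222_at, limma adjusted p = 0.0193, and 2.28 for 101571_g_at, limma adjusted p = 0.000102) were kept. So was the fall of 94222_at with EGF against UT (limma adjusted p = 0.00958) and on average (log2 -1.21, limma adjusted p = 0.0209). For Igfbp3 the calls lost were the EGF average (limma adjusted p = 0.0568), IDMB on TCDD (0.124), EGF on IDMB (0.0522) and TCDD on IDMB (log2 -1.68, limma adjusted p = 0.245). For 101571_g_at they were the EGF average (limma adjusted p = 0.0594) and EGF against UT (0.0607). The Igfbp7 call was lost (limma adjusted p = 0.224), as were the TCDD average (0.0785), IDMB on TCDD (0.155) and TCDD on IDMB+EGF (0.0653) for 100566_at.

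The wider IGF axis was counted from 4 lists. Among the ligands and receptors, 4 of 7 genes on the array were tested, and the IGF2 receptor Igf2r, which clears IGF2, was higher with IDMB (log2 0.40 ± 0.08, limma adjusted p = 0.00101). Igf2r read 7591 to 10379 on IDMB arrays and 5556 to 8019 without IDMB. The other 3 (Igf1, Igf2 and Igf1r) were not called for any average, and Igf1 stayed between 2796 and 4809. The insulin receptor Insr was below the filter, at 71.8 to 744.6. This was 1 of 4 tested, where 15.5% of all tested probe sets were higher with IDMB. The list's median log2 difference with IDMB was -0.06, against -0.04 over all tested probe sets.

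Of the proteases and partners that cut or bind these carriers, 8 of 16 genes were tested, and with IDMB 1 was higher and 1 lower. Lrp1, an endocytic receptor that also binds Igfbp3, was higher with IDMB (log2 1.31 ± 0.10, limma adjusted p = 3.82e-08), at 46243 to 81257 on IDMB arrays and 19152 to 36474 without. Plat, tissue plasminogen activator, was lower with IDMB (log2 -1.66 ± 0.16, limma adjusted p = 1.10e-06) and higher with EGF (log2 1.23 ± 0.16, limma adjusted p = 0.000548). Plat was lowest with IDMB alone, at 630.8, 695.3 and 408.9, against 3188, 3419 and 4134 in UT. Mmp14, a membrane protease, was lower with EGF (log2 -0.41 ± 0.11, limma adjusted p = 0.0219) and with TCDD (log2 -0.42 ± 0.11, limma adjusted p = 0.0336). The list's medians were 0.13 for IDMB, -0.22 for EGF and -0.19 for TCDD, against -0.04, 0.0044 and 0.012 over all tested probe sets.

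Among other genes whose proteins carry an IGFBP-type domain, 7 of 10 were tested and 4 were lower with IDMB and 0 higher, where 18.6% of all tested probe sets were lower and 15.5% higher. The 4 were all CCN matrix proteins. Ccn2, connective tissue growth factor, was under the floor on 8 of 9 IDMB arrays (31.8 to 156) and at 849.7 to 3391 without IDMB. Its average difference was -3.81 ± 0.22 with the floor applied (log2, limma adjusted p = 1.94e-09). The fall is thus at least that large, and the floored arrays lower its SE. Ccn2 passed the filter only through groups without IDMB, so the count of 4 lower cannot be read against the share of all probe sets. The others were Ccn1 (log2 -1.76 ± 0.19, limma adjusted p = 2.38e-06), Ccn3 (-2.38 ± 0.44, limma adjusted p = 0.000540) and Ccn4 (-0.60 ± 0.14, limma adjusted p = 0.00278). This is the opposite direction from Igfbp3 and Igfbp4. Ccn5 was higher with TCDD (log2 1.20 ± 0.14, limma adjusted p = 7.35e-05) and with EGF (log2 0.54 ± 0.14, limma adjusted p = 0.0174), and Ccn4 was lower with TCDD (log2 -1.03 ± 0.14, limma adjusted p = 0.000281). Igfbp1, the neighbour of Igfbp3, was under the floor on 12 of 18 arrays. The list's median with IDMB was -0.60, against -0.04 over all tested probe sets.

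Of the intracellular signalling genes 16 of 19 were tested and 4 were higher with IDMB and 0 lower, where 34.1% of all tested probe sets were called (15.5% higher). The share called in either direction was not above that of all probe sets. The share called higher was above it, and neither difference was tested. Irs2, an adaptor of the insulin and IGF receptors, was 1.19 ± 0.29 higher (log2, limma adjusted p = 0.00468), and IDMB alone gave 1096, 2548 and 2352, against 497.9, 465.8 and 205.1 in UT. The others were the transcription factor Foxo3 (log2 0.76 ± 0.10, limma adjusted p = 1.84e-05), the phosphatase Ptpn1 (0.63 ± 0.12, limma adjusted p = 0.000850) and the adaptor Shc1 (0.50 ± 0.11, limma adjusted p = 0.00152). With EGF, Ptpn1 was higher (log2 0.60 ± 0.12, limma adjusted p = 0.00604), and Shc1 (-0.57 ± 0.11, limma adjusted p = 0.00318) and the PI3 kinase subunit Pik3r1 (-0.93 ± 0.24, limma adjusted p = 0.0191) were lower. With TCDD, Ptpn1 (log2 0.61 ± 0.12, limma adjusted p = 0.00750) and Foxo3 (0.37 ± 0.10, limma adjusted p = 0.0373) were higher. The list's median with IDMB was 0.10, against -0.04 over all tested probe sets. Over the 4 lists, median scaling and quantile normalization kept the sign of each called average. With the actin ratio as a covariate the IDMB calls of Plat, Lrp1, Ccn1, Ccn2 and Irs2 and the TCDD calls of Ccn4, Ccn5 and Ptpn1 were kept, and the other IDMB, EGF and TCDD calls of these lists were lost. With the Gapdh ratio the EGF calls of these lists were lost, and the sign for Pik3r1 turned. Without TCDD replicate 1 and IDMB+TCDD replicate 1 the IDMB calls of these lists were kept, and the TCDD calls of Mmp14 and Foxo3 and the EGF calls of Ccn5 and Pik3r1 were lost.

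The tested probe sets most alike to each member over the 18 arrays were found by Pearson correlation, given as a description over arrays that share 8 groups. Igfbp3 was closest to Abhd5, a lipase coactivator (r = 0.95), the triglyceride lipase Pnpla2 (r = 0.95) and Nampt, an enzyme of NAD synthesis (r = 0.95). Igfbp4 (94222_at) was closest to Bcl2l11 (r = 0.91), Smim14 (r = 0.85) and Tcn2 (r = 0.84). Igfbp2 was closest to Hgf, hepatocyte growth factor (r = 0.85), Cdkn2b, a cell cycle inhibitor (r = 0.85), and Kctd10 (r = 0.79). Igfbp7 was closest to Cmip (r = 0.85), Acaa1a (r = 0.77) and Eci2 (r = 0.73), and Igfbp6 to Ints5 (r = 0.75), Zfp777 (r = 0.75) and Rnps1 (r = 0.70). Among the members themselves, Igfbp3 correlated with Igfbp4 at r = 0.53 by the brightest probe sets and with Igfbp2 at r = 0.41, while Igfbp7 stayed between -0.16 and 0.20 with the other genes.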

How the data were processed

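Signal intensities of 18 Affymetrix-type arrays were used on their deposited linear scale, whose trimmed means (2% trimmed at each end) of about 2501 on every array show that they had been scaled before the authors deposited them. The software and genome build are not given in the sources used here. Detection calls were not used. Precision is limited by how many arrays each group has. Genes were named from the platform annotation: of the probe sets other than the 66 controls, 10833 had 1 symbol, 396 several and 1237 none, and no member was named from a probe set with several. Values under the floor of 143.5 (20th percentile) were set to it and log2 was taken. A probe set was tested (7134 in all) where its highest group mean reached the overall median log2 value of 9.73. One mean per group was fitted over all 18 arrays with limma 3.58.1 in R 4.3.3 (variance trend, 10 residual and 6.03 prior degrees of freedom), with Benjamini-Hochberg adjustment per comparison, and the procedure was tested on simulated data. Average effects weight the 4 backgrounds equally. A fold against a group wholly at the floor is a lower bound. Such a group also has a spread of 0, which lowers the SE shared by all groups for 95082_at, 101571_g_at and 100566_at, and for Ccn2. A gene is represented by its probe set of highest mean intensity. Every member is described, with averages whether or not called, other comparisons as folds where called or where 2 probe sets are set side by side, and the 3 most correlated genes. Members, lists and rules were chosen with earlier results of these data known. Replicates 1 and 2 deviated together only weakly between groups (r of -0.10 to 0.28 over 28 pairs of groups, median 0.047, 9 above 0.1). Replicate 3 was not covered by this check. Same-numbered replicates were not paired in the main fit, and a replicate block was an alternative. Promoters came from RefSeq. Alternatives were median scaling, quantile normalization, log2(value + floor), no filter, a replicate block, 3′/5′ ratios as covariates leaving out each array and, chosen after seeing the data, leaving out the pair of arrays without EGF that read high for Egr1.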

Additional observations from a re-analysis of the deposited data

How the results depend on the processing

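Over the 5 member probe sets and 100566_at there were 24 calls, of which 8 were kept without any 1 array. Of the 24, median scaling kept 22, quantile normalization 22, log2(value + floor) 23, no filter 18 (it also gained Igfbp3 with TCDD), the replicate block 23, the actin ratio as a covariate 9 and the Gapdh ratio 15. With the replicate block Igfbp2 gained calls for EGF (adjusted p = 0.0354) and TCDD (log2 -1.54, adjusted p = 0.00360), and the Igfbp7 call was lost. In that block replicate 3 is present only for IDMB and UT. Signs turned for Igfbp2 with IDMB (-0.15 with the actin ratio, -0.10 to 0.34 without 1 array), Igfbp4 with TCDD without 1 array (-0.30 to 0.046 for 94222_at, -0.20 to 0.015 for 101571_g_at), Igfbp7 with IDMB (-0.25, actin ratio) and EGF (-0.0080, Gapdh ratio), and 100566_at with EGF (1.01, actin ratio, and 1.71, Gapdh ratio). Without TCDD 1 and IDMB+TCDD 1 together, the sign turned for Igfbp2 with IDMB (-0.15) and 94222_at with TCDD (0.071). None of these was called, and the cause was not tested.

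Over all probe sets, the actin ratio cut the calls for average IDMB to 448 against 2432, and for IDMB against UT to 482 against 1004. The Gapdh ratio gave 36 for TCDD against UT, against 548. With no filter there were 184 for EGF against UT (440 with it), 338 for TCDD against UT, 12 for EGF+TCDD against EGF (20), 15 for IDMB by TCDD (8) and 174 for EGF by TCDD (319). The replicate block gave 441 for IDMB+EGF against IDMB (271), 40 for IDMB+EGF+TCDD against IDMB+TCDD (20), 15 for IDMB by EGF (9), 14 for IDMB by TCDD and 597 for EGF by TCDD. Median scaling gave 37 for IDMB+EGF+TCDD against IDMB+TCDD and 2 for IDMB by EGF, and quantile normalization 21 for IDMB by EGF. Leaving out TCDD 1 and IDMB+TCDD 1, which also leaves fewer arrays, gave 212 for average TCDD, 287 for IDMB+TCDD against TCDD, 96 for TCDD against UT, 173 for IDMB+TCDD against IDMB, 1 for IDMB by EGF, 0 for IDMB by TCDD and 69 for EGF by TCDD.

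The split of calls moved with scaling. Median scaling gave 1263 higher and 1035 lower for average IDMB (1104 and 1328 as deposited), 574 and 247 for IDMB+TCDD against TCDD (466 and 448), with all values shifted by 0.15 in log2, 175 and 308 for TCDD against UT (277 and 271) and 11 and 26 for IDMB+EGF+TCDD against IDMB+TCDD (11 and 9). Quantile normalization gave 13 and 16 there, and 12 and 9 for IDMB by EGF (4 and 5).

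Without 1 array the counts ran from 467 to 1018 for average EGF (935), 260 to 463 for average TCDD (395), 306 to 1000 for IDMB+TCDD against TCDD (914), 308 to 846 for IDMB+EGF against EGF (770), 178 to 554 for IDMB+EGF+TCDD against EGF+TCDD (464), 14 to 508 for EGF against UT, 1 to 303 for EGF+TCDD against TCDD (250), 30 to 305 for IDMB+EGF against IDMB, 0 to 32 for IDMB+EGF+TCDD against IDMB+TCDD, 114 to 641 for TCDD against UT, 8 to 24 for EGF+TCDD against EGF, 151 to 528 for IDMB+TCDD against IDMB (470), 6 to 33 for IDMB+EGF+TCDD against IDMB+EGF (26), 0 to 21 for IDMB by EGF, 8 to 14 for IDMB by TCDD and 111 to 406 for EGF by TCDD.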
